A study of Drosophila melanogaster with 25 samples.

Results

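The 10 genes described here are the core planar cell polarity genes of Drosophila melanogaster, frizzled (fz), starry night (stan), Van Gogh (Vang), prickle (pk), dishevelled (dsh) and diego (dgo), together with the effectors inturned (in), fuzzy (fy), fritz (frtz) and multiple wing hairs (mwh). They were taken by symbol from gene tables of 17208 genes, and all 10 were found in both tables and passed the filter on low counts in every comparison. The libraries measure RNA after gain or loss of Fat, a giant cadherin that gives tissues a long-range polarity cue and restrains growth. Animals that express the Fat intracellular domain (FtICD) from UAS-FtICD-3xFLAG under ubi-Gal4 were set against w1118 wild type in embryos aged 16 to 20 h (4 and 4 libraries), third-instar wing discs (3 and 3) and third-instar eye-brain complexes (3 and 2). Eye-brain complexes of ft fd5-5/ft X13 animals, which carry 2 ft alleles in trans and are called ft null, were set against w1118 eye-brain complexes of their own table (3 and 3).

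Core polarity proteins sort to opposite sides of each epithelial cell. Frizzled, Dishevelled and Diego gather on one side, Van Gogh and Prickle on the other, and the cadherin Starry night joins both across the cell border. In the wing, Inturned, Fuzzy and Fritz sit with Van Gogh and act through Multiple wing hairs to hold the actin prehair to one edge of the cell. In the eye the core proteins set the chirality and rotation of the ommatidia. Polarity is set largely by protein location, so RNA levels say how much message was present and nothing of where a protein sat.

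The w1118 controls carry neither ubi-Gal4 nor the UAS transgene, nor either ft allele, so other differences between the stocks cannot be told apart from the effect of Fat. Nothing in the labels says how many animals made a library or whether replicates came from separate cultures, so the p-values measure the spread between libraries, which may be technical. The library totals ran from 23642579 to 54256664 counts in the FtICD table and from 15016563 to 21001527 in the ft null table. The ft message averaged 1276 against 27.9 CPM (counts scaled to a library of 1000000) in FtICD and WT embryos, 8063 against 302 in FtICD and WT wing discs and 4327 against 136 in FtICD and WT eye-brain complexes. It averaged 170 CPM in ft null and 117 CPM in its WT, so the ft message does not itself check the null label. All 5 wing disc markers had their highest group means in the wing discs, among them vestigial (vg) at 62.5 CPM in FtICD and 62.6 CPM in WT wing discs and at most 6.67 CPM in any other group. The wing markers nub (75.6 and 223 CPM) and hh (22.2 and 63.4 CPM) were lower in FtICD than in WT wing discs. Of the eye disc markers, ey, eya, dac and gl had higher means in every eye-brain group than in any other group. The marker so stood at 2.22 CPM in WT eye-brain complexes of the FtICD table, below its 11.3 CPM in WT embryos. In WT eye-brain complexes of the ft null table so averaged 64.8 CPM. One library stood apart: FtICD eye-brain replicate 3 held 3777 CPM of 4 fat body markers and 6937 CPM of 3 salivary glue markers, against at most 65.7 and 18.8 CPM in the 4 other eye-brain libraries of that table.

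In genome build BDGP6 (dm6 coordinates, Ensembl annotation), the core genes fz (FBgn0001085) at 3L:14274343-14368639, stan (FBgn0024836) at 2R:10673345-10721138, Vang (FBgn0015838) at 2R:9103238-9106796, pk (FBgn0003090) at 2R:7150703-7223378 and dsh (FBgn0000499) at X:11355881-11358724 lie on the plus strand, and dgo (FBgn0086898) at 2R:10816037-10819884 on the minus strand. Among the effectors, mwh (FBgn0264272) at 3L:1200786-1232700 and inturned (FBgn0001259) at 3L:20367198-20370259 lie on the plus strand, and fy (FBgn0001084) at 2L:8401476-8403280 and frtz (FBgn0086698) at 2L:1711302-1715851 on the minus strand. The merged exons run from 1688 bases in fy to 13535 bases in stan, with 7 annotated transcripts for stan and 1 each for dsh and inturned. Exons of frtz share 164 bases with the opposite-strand gene mRpL48 and 268 bases with an mdg3 transposon insertion, and exons of fy share 117 bases with CG31898. Counting by strand is not stated, so reads there could go to either gene.

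Among WT tissues the wing disc held the most message of most members. All 10 genes differed between WT wing disc and WT embryo, 8 higher and 2 lower in the wing disc, where 87.6% of the 12187 genes tested were called at an adjusted p under 0.05, 36.7% higher and 50.8% lower. Between WT eye-brain and WT embryo 9 genes differed, 7 higher and 2 lower in eye-brain, beside 82.2% of all genes, 39.3% higher and 42.9% lower. Between WT eye-brain and WT wing disc 9 differed, 2 higher and 7 lower in eye-brain, beside 50.1% of all genes, 29.2% higher and 20.9% lower. The median gene tested stood at -0.48 (log2) in wing disc over embryo, -0.07 in eye-brain over embryo and 0.05 in eye-brain over wing disc. The embryo libraries were sequenced on a NovaSeq X Plus and the larval libraries of this table on a NovaSeq 6000, so tissue and instrument cannot be told apart in contrasts with the embryo.

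Per kilobase of exon, Vang was the most abundant member in each WT tissue, at 91.6 ± 1.83 CPM per kb in wing discs (SD, n = 3), 62.6 ± 1.02 in eye-brain complexes (SD, n = 2) and 17.0 ± 0.613 in embryos (SD, n = 4). The receptor gene fz came next in each WT tissue of the FtICD table, at 33.2, 18.8 and 9.43 CPM per kb. In WT eye-brain complexes of the ft null table, Vang was also first, at 82.6 CPM per kb. In that set dsh at 46.2 and pk at 23.96 CPM per kb stood above fz at 18.25 CPM per kb. In the WT wing disc fz and fy were followed by inturned at 15.4, frtz at 13.7, dgo at 10.8, stan at 3.47, dsh at 3.17, pk at 1.85 and mwh at 0.439 CPM per kb. Of the neighbours in that order, only inturned and frtz, and stan and dsh, had single libraries that overlapped. In WT eye-brain complexes of the FtICD table the order after fz was fy at 17.0, frtz at 8.84, stan at 7.07 and dgo at 6.41 CPM per kb. Then came dsh at 4.95, inturned at 4.71, pk at 2.62 and mwh at 0.278 CPM per kb, and only dsh and inturned overlapped. In WT embryos it was frtz at 7.71, mwh at 6.38, pk at 5.48, dgo at 2.52, fy at 2.34, stan at 1.57, dsh at 0.876 and inturned at 0.204 CPM per kb. There, frtz and mwh, mwh and pk, dgo and fy, and fy and stan overlapped.

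The order of the effectors turned over between embryo and wing disc. In WT embryos mwh, which encodes a formin-related brake on actin assembly, stood behind only Vang, fz and frtz, whereas inturned was last. In WT wing discs inturned stood behind only Vang, fz and fy, and mwh was last. Inturned had 48.3, 38.3 and 54.7 CPM in the WT wing libraries, against 0.723, 0.163, 1.0 and 0.607 CPM in WT embryos, with a log2 difference of 6.01 ± 0.31 SE and an adjusted p of 1.8e-08. The WT embryo values rest on 4 to 23 counts per library. Its partner fy had 49.8 CPM in each WT wing library and 3.19 to 4.78 CPM in WT embryos, a log2 fold change of 3.42 ± 0.13. The gene mwh ran the other way, with 1.71, 2.28 and 2.26 CPM in WT wing discs against 29.7, 30.8, 26.7 and 33.9 CPM in WT embryos (log2 fold change -4.09 ± 0.19, adjusted p = 7.2e-09). WT eye-brain complexes had 1.64 and 1.0 CPM of mwh, -4.73 ± 0.24 against WT embryos. Only frtz among the effectors did not differ between WT eye-brain and WT embryo, with a log2 fold change of -0.02 and a 95% interval from -0.25 to 0.22.

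Among the core genes, pk was the one that stood lower in both larval tissues of the FtICD table than in embryos. Its WT values there were 13.4, 12.3 and 11.8 CPM in wing discs and 18.3 and 17.0 CPM in eye-brain complexes, against 40.9, 34.5, 31.2 and 41.3 CPM in embryos. In WT eye-brain complexes of the ft null table, which was scaled separately, pk averaged 162 CPM. That value lies above the WT embryos, with no test. The cadherin gene stan was highest in eye-brain complexes, at 90.8 and 101 CPM, against 41.3 to 53.7 CPM in wing discs and 18.7 to 25.6 CPM in embryos. Eye-brain complexes exceeded wing discs for stan by a log2 fold change of 1.04 ± 0.15 (adjusted p = 2.2e-04) and for pk by 0.52 ± 0.14 (adjusted p = 0.0090). The call on pk was lost without WT eye-brain replicate 1 (adjusted p = 0.16) or replicate 2 (adjusted p = 0.067), and mwh, lower by 0.64 ± 0.23, was lost without WT eye-brain replicate 2 (adjusted p = 0.20). The call on mwh was also lost without WT wing disc replicate 2 (adjusted p = 0.087) or replicate 3 (adjusted p = 0.10), or without any 1 WT embryo library (adjusted p between 0.054 and 0.064). The remaining core genes fz, Vang and dgo were lower in WT eye-brain than in WT wing disc by 0.80, 0.53 and 0.74 (log2), and dsh did not pass the test (0.67 ± 0.27, adjusted p = 0.065).

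**Figure D1:**
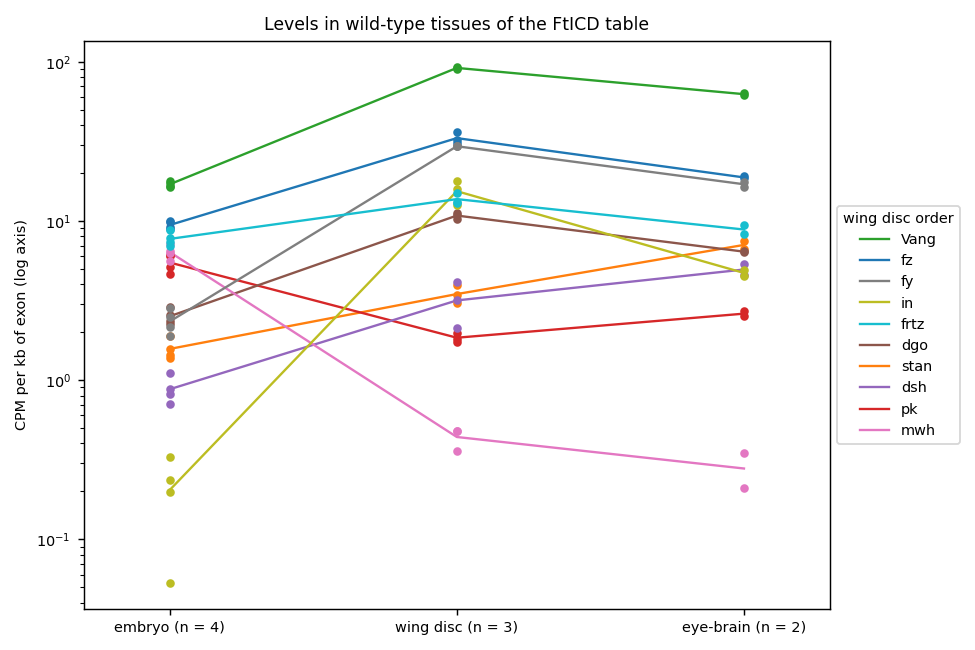
Level of each gene in WT embryos, wing discs and eye-brain complexes of the FtICD table, in CPM per kilobase of exon on a log axis, with points for single libraries and lines through the group means. Vang is the top line in all 3 tissues, while inturned runs is the lowest point in embryos (0.204) and above 6 other members in wing discs (15.4), and mwh stands at 6.38 in embryos and 0.439 in wing discs.

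In embryos, 4 of the 10 genes changed with FtICD: fz rose, and pk, mwh and frtz fell. These same 4 genes were the ones whose FtICD and WT libraries did not overlap. The FtICD embryos differed from WT embryos very widely, with 52.5% of the 11422 genes tested called, 26.7% higher and 25.8% lower, and 48.4% of genes without overlap of the groups. The count of members called is therefore near the share called among all genes. The median log2 fold change was -0.16 over the 10 genes and 0.00 over all genes tested.

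The effector mwh showed the largest change of the 10 genes in embryos. Its level was 8.78, 9.59, 9.79 and 8.88 CPM in FtICD embryos, against 29.7, 30.8, 26.7 and 33.9 CPM in WT embryos. The highest FtICD library lay far under the lowest WT library. The log2 fold change was -1.67 ± 0.09 SE, or 0.314 of the WT level (adjusted p = 5.6e-07). The effector frtz, a WD-repeat protein gene, had 23.2, 22.1, 22.2 and 19.2 CPM in FtICD embryos and 26.6, 31.6, 25.0 and 28.0 CPM in WT embryos (-0.32 ± 0.10, adjusted p = 0.016). The opposite-strand neighbour mRpL48, which shares exon bases with frtz, fell by 1.56 on the log2 scale in the same embryos, and its part in the frtz value was not tested.

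The core gene pk encodes a LIM-domain protein of the Van Gogh side. It had 20.9, 22.7, 19.9 and 22.7 CPM in FtICD embryos against 40.9, 34.5, 31.2 and 41.3 CPM in WT embryos, with no overlap (-0.74 ± 0.10, adjusted p = 1.6e-04). The receptor gene fz had 44.8, 43.4, 41.6 and 40.2 CPM in FtICD embryos and 37.9, 37.4, 33.8 and 34.9 CPM in WT embryos. The groups of fz stood apart by a small step, a log2 fold change of 0.28 ± 0.07 (adjusted p = 0.0094). That call on fz was lost when all 19 libraries of the table shared 1 estimate of the spread (0.24, adjusted p = 0.096).

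The other 6 genes did not pass the test in embryos. Log2 fold changes were -0.23 ± 0.11 for stan, -0.14 ± 0.07 for Vang, -0.19 ± 0.12 for dgo and 0.27 ± 0.21 for dsh. The effectors fy and inturned stood at 0.18 ± 0.19 and 0.03 ± 0.45, and the 95% interval for inturned, from -0.86 to 0.92, reflects 10 to 22 counts in FtICD and 4 to 23 counts in WT libraries. Other measures moved with the same groups: 4 muscle markers summed to 15515 to 19208 CPM in FtICD and 24165 to 26949 CPM in WT embryos, and ribosomal RNA genes took 10.9 to 14.8% of counts in FtICD and 3.97 to 5.63% in WT embryos. The 4 late epidermis markers summed to 8705 to 10649 CPM in FtICD and 11878 to 16904 CPM in WT embryos, a sum made up mostly of TwdlM (mean 9423 and 13563 CPM). Its other 3 markers had higher means in FtICD embryos, ple at 154 and 73.7 CPM, Ddc at 332 and 293 CPM and Cpr49Aa at 2.87 and 2.19 CPM in FtICD and WT. None of these markers was at 0, and their part in the changes of mwh, pk, frtz and fz was not tested. In whole embryos and dissected tissue, fewer cells of a type and less RNA per cell cannot be told apart.

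**Figure D2:**
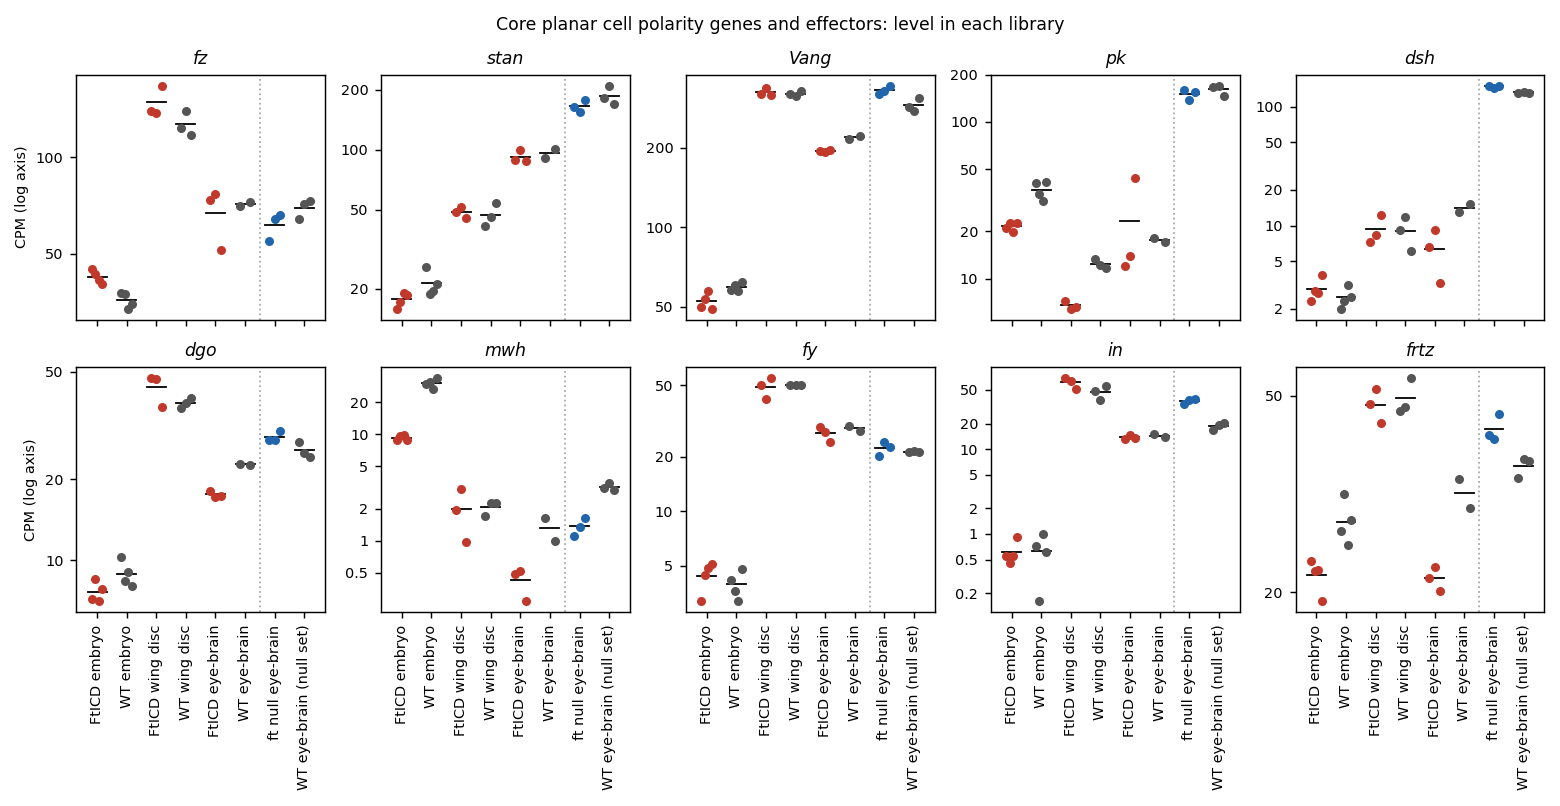
CPM of each gene in every library, on log axes, with FtICD in red, ft null in blue, WT in grey and black bars at the group means; the dotted line separates the tables, each scaled on its own. In embryos mwh and pk show red points wholly below grey ones, and in eye-brain complexes the ft null points of inturned (34.3 to 38.8 CPM) lie above those of its WT (16.9 to 20.1 CPM).

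In wing discs, pk was the only one of the 10 genes to pass the test, and it fell with FtICD. Among the 9416 genes tested there, 17.6% were called, 7.67% higher and 9.97% lower. The level of pk was 7.22, 6.44 and 6.62 CPM in FtICD wing discs, against 13.4, 12.3 and 11.8 CPM in WT wing discs. No FtICD library reached a WT library, and the log2 fold change was -0.88 ± 0.13 SE, or 0.542 of the WT level (adjusted p = 0.0054). It was the only member without overlap of the groups, which 39.5% of all genes tested showed. The call was lost in the fit that pooled the spread of all 19 libraries (-0.88, adjusted p = 0.082).

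The remaining core genes lay close to WT in wing discs. Vang had 319, 336 and 316 CPM in FtICD and 320, 313 and 326 CPM in WT wing discs, a log2 fold change of 0.01 with a 95% interval from -0.12 to 0.15. For stan the value was 0.04 ± 0.12, for dsh 0.04 ± 0.29, for dgo 0.19 ± 0.11 and for fz 0.22 ± 0.11 (adjusted p = 0.19). Among effectors, inturned had 69.0, 64.3 and 50.9 CPM in FtICD wing discs and 48.3, 38.3 and 54.7 CPM in WT wing discs. These groups overlapped, and 0.38 ± 0.16 did not pass the test (adjusted p = 0.16). The value was -0.03 ± 0.11 for fy and -0.05 ± 0.10 for frtz.

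The effector mwh was scarce and scattered in wing discs, at 1.95, 3.06 and 0.972 CPM in FtICD and 1.71, 2.28 and 2.26 CPM in WT libraries. Its log2 fold change of -0.07 had a 95% interval from -0.89 to 0.75, so a fall of the size seen in embryos lies outside it. The difference between the wing disc and embryo effects on mwh was tested directly and was 1.64 ± 0.40 (SE, adjusted p = 0.0059), the only one of the 10 genes called, beside 27.7% of 12680 genes in either direction and 14.7% in this one. Fat body markers summed to 48.7 to 752 CPM in FtICD and 16.1 to 61.9 CPM in WT wing discs, none of the 4 at 0, and their part in the pk value was not tested.

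**Figure D3:**
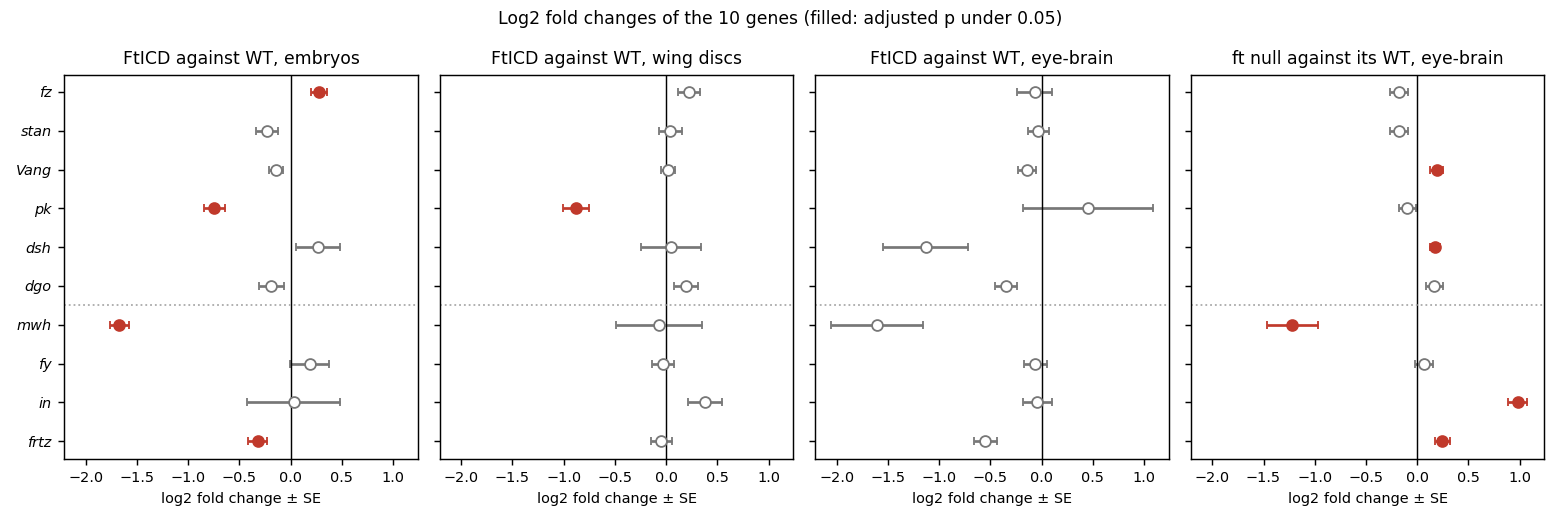
Log2 fold change of each gene with its SE in the 4 comparisons, filled where the adjusted p was under 0.05 and open elsewhere; the dotted line separates core genes (above) from effectors. The lowest filled points are mwh in embryos (-1.67) and in ft null eye-brain complexes (-1.22), the open point of mwh in FtICD eye-brain complexes lies at -1.60, and the longest error bar of a core gene is that of pk in FtICD eye-brain complexes (0.45 ± 0.63).

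In eye-brain complexes, none of the 10 genes passed the test with FtICD, where edgeR called 4.22% of the 10841 genes tested, 3.15% higher and 1.08% lower. The values of 4 members had an unadjusted p under 0.05, dsh, dgo, mwh and frtz, all of them lower in FtICD. By unadjusted p, dsh ranked 2093 and frtz 607 among the 10841 genes tested, so many other genes passed that threshold as well. DESeq2 called 3 of these, dgo, mwh and frtz, and the fit pooling the spread of all 19 libraries called dsh, mwh and frtz. Over all genes DESeq2 called 1837 of 10789 and the pooled fit 1725 of 12680, so 3 of 10 there is read against wider calling than edgeR's. In 5 members, these 4 and Vang, the FtICD libraries all lay below both WT libraries. Of all genes tested 45.7% had groups that did not overlap, 23.7% with FtICD lower. The common spread was widest in this comparison, a biological coefficient of variation of 33.7%, against 14.9% in the embryo comparison.

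The lowest adjusted p belonged to frtz, with 21.4, 22.5 and 20.1 CPM in FtICD eye-brain complexes and 34.0 and 29.7 CPM in WT. The log2 difference was -0.55 ± 0.11 SE with an adjusted p of 0.067, and -0.53 (adjusted p = 0.062) without FtICD replicate 3. Next, mwh had 0.488, 0.515 and 0.272 CPM in FtICD and 1.64 and 1.0 CPM in WT, from 10 to 23 and 33 to 56 counts. Its value was -1.60 ± 0.45 (adjusted p = 0.13). The 95% interval ran from -2.48 to -0.72.

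Of the cytoplasmic core genes, dgo, an ankyrin-repeat protein gene, had 18.1, 17.2 and 17.3 CPM in FtICD and 22.8 and 22.6 CPM in WT eye-brain complexes (-0.35 ± 0.11, adjusted p = 0.15). The adaptor gene dsh had 6.60, 9.14 and 3.29 CPM in FtICD and 12.9 and 15.3 CPM in WT, without overlap but with wide scatter (-1.13 ± 0.41, adjusted p = 0.19). The FtICD replicates of pk were at 12.1, 13.9 and 44.2 CPM, with WT at 18.3 and 17.0 CPM. Replicate 3, the library with fat body and salivary gland markers, was the one above WT. Among eye-brain libraries of its table it also had the highest sums of eye disc (292 CPM), neuron (781), haemocyte (229) and muscle markers (593 CPM). The part of any of these in the pk value was not tested. The log2 fold change of pk was 0.45 ± 0.63 with replicate 3 and -0.43 (adjusted p = 0.13) without it, so the direction turned with 1 library. The same library was lowest for fz, at 51.3 CPM against 73.7 and 76.7 CPM in its FtICD replicates and 70.7 and 72.7 CPM in WT. The log2 fold change of fz was -0.07 ± 0.17 with that library and 0.08 without it. Vang (-0.14 ± 0.09), stan (-0.03 ± 0.10), fy (-0.06 ± 0.11) and inturned (-0.04 ± 0.14) made up the rest.

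The FtICD effects in eye-brain complexes were also set against those in the other tissues. Against embryos 1 member differed, dsh at -1.38 ± 0.47 (adjusted p = 0.037), beside 28.2% of all genes in either direction and 12.4% in this one. For mwh the effects in eye-brain complexes and embryos differed by 0.09 ± 0.50, and for pk by 1.18 ± 0.47 (adjusted p = 0.070). Against wing discs 3 members differed, all lower in eye-brain complexes, beside 12% of all genes and 3.83% in this direction. They were dgo (-0.57 ± 0.17, adjusted p = 0.038), frtz (-0.53 ± 0.16, adjusted p = 0.040) and mwh (-1.55 ± 0.49, adjusted p = 0.049). The call on dsh was lost without any 1 of 9 libraries, and each of the other 3 without any 1 of 10 or more.

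Loss of ft in eye-brain complexes changed 5 of the 10 genes: inturned, frtz, Vang and dsh rose and mwh fell. Of the 9978 genes tested, 44.5% were called, 23.5% higher and 21% lower, so 5 of 10 is near the background. Groups did not overlap for 6 members, the 5 called and dgo, and for 56.7% of all genes. The changes of inturned and mwh held with any 1 library left out, whereas those of Vang (1.14-fold), dsh (1.12-fold) and frtz (1.19-fold) did not.

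The PDZ-domain effector gene inturned had 34.3, 37.8 and 38.8 CPM in ft null and 16.9, 19.2 and 20.1 CPM in its WT. The lowest ft null library lay well above the highest WT library, and the log2 fold change was 0.98 ± 0.09 SE, or 1.97-fold (adjusted p = 2.4e-04). Its partner fy did not pass the test, at 20.2, 24.2 and 22.5 CPM in ft null and 21.3, 21.5 and 21.2 CPM in its WT (0.07 ± 0.09, adjusted p = 0.59). The third partner frtz had 41.5, 40.8 and 45.8 CPM in ft null and 34.1, 37.2 and 36.9 CPM in its WT (0.24 ± 0.07, adjusted p = 0.027). The neighbour mRpL48 fell by 0.42 in the same complexes, opposite to frtz.

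The effector mwh had 1.11, 1.35 and 1.65 CPM in ft null and 3.13, 3.51 and 3.0 CPM in its WT, from 18 to 34 and 45 to 59 counts. All ft null libraries lay below all WT libraries, and the log2 fold change was -1.22 ± 0.25 (adjusted p = 0.0059), or 0.430 of the WT level.

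Among the core genes, Vang had 318, 326 and 342 CPM in ft null and 283, 274 and 309 CPM in its WT (0.19 ± 0.06, adjusted p = 0.044). The call on Vang was lost without ft null replicate 1 (adjusted p = 0.065), replicate 2 (0.095) or replicate 3 (0.15), and without WT replicate 1 (0.12) or replicate 2 (0.11). For dsh the values were 149, 144 and 149.9 CPM in ft null and 130.4, 133 and 131 CPM in its WT (0.17 ± 0.05, adjusted p = 0.025). The call on dsh was lost without ft null replicate 1 (adjusted p = 0.070) or 3 (0.089), or without WT replicate 1 (0.069) or 3 (0.065). The call on frtz was lost without ft null replicate 3 (adjusted p = 0.11), or without WT replicate 1 (0.088) or 3 (0.051). The count of members called was 2 without ft null replicate 3 or WT replicate 1 and 3 without ft null replicate 1 or WT replicate 3. All-gene calls fell as well in these 4 fits, from 4440 of 9978. In the same order they were 3097 of 10166, 3728 of 10170, 3561 of 10151 and 3724 of 10190. The other core genes did not pass, with dgo at 0.17 ± 0.08, fz at -0.18 ± 0.09, stan at -0.18 ± 0.09 and pk at -0.10 ± 0.08, each with an adjusted p of 0.13 or more.

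The tissue composition markers moved with loss of ft as well. The 5 eye disc markers summed to 581 to 610 CPM in ft null and 784 to 851 CPM in its WT, 4 neuron markers to 931 to 968 and 1274 to 1396 CPM, and 4 haemocyte markers to 326 to 406 and 102 to 119 CPM. None of the eye disc or neuron markers was at 0. The photoreceptor regulator glass (gl) averaged 29.9 CPM in ft null and 91.3 CPM in its WT, while eyeless (ey) averaged 93.7 and 79.7 CPM. The part of these shifts in the values of inturned, mwh, Vang, dsh and frtz was not tested.

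The effects of ft loss and of FtICD in eye-brain complexes were compared with each other in 1 fit, each against its own WT. Table and sequencer differ between the sets and cannot be told apart from genotype beyond what each own WT removes. The effect of ft loss was higher for 5 genes, beside 17.2% of 10916 genes called in either direction and 8.32% in this direction. The difference was 1.07 ± 0.14 for inturned (SE, adjusted p = 0.0013), 0.84 ± 0.12 for frtz (0.0017), 0.56 ± 0.11 for dgo (0.0100), 1.34 ± 0.38 for dsh (0.040) and 0.38 ± 0.11 for Vang (0.037). For mwh, which was lower in ft null and lower without passing the test in FtICD, no difference of the effects passed the test (0.42 ± 0.46, adjusted p = 0.57). The differences for inturned, frtz and dgo held with any 1 library left out.

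The 2 WT eye-brain sets, 1 in each table, did not agree on every member, although both carry the w1118 label and the same tissue. The levels of pk averaged 17.7 CPM in the FtICD table and 162 CPM in the ft null table, 9.16-fold lower in the FtICD table, and those of dsh 14.1 and 131 CPM, 9.33-fold lower. Only 3.07% of 9603 genes were lower than pk by this measure and 3.02% lower than dsh. For stan the averages were 95.7 and 187 CPM and for mwh 1.32 and 3.21 CPM. Those of fz, dgo and frtz lay within 1.13-fold of each other. The median gene stood at -0.24 (log2) in the FtICD table against the ft null table. Tissue markers and RNA makeup differed between these sets too: the 5 eye disc markers summed to 117 to 136 CPM in WT of the FtICD table and 784 to 851 CPM in WT of the ft null table, none at 0, with so at 2.22 and 64.8 CPM, eya at 18.99 and 309.7 CPM and dac at 30.8 and 277 CPM. The 4 neuron markers summed to 563 to 644 and 1274 to 1396 CPM, and ribosomal RNA genes took 10.1 to 13.7% and 0.403 to 0.460% of counts. Their part in the pk and dsh values was not tested. The tables were scaled separately and their libraries were sequenced on a NovaSeq 6000 and a NovaSeq X Plus, so these are values side by side with no test, and each mutant was compared with the WT of its own table alone.

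**Figure D4:**
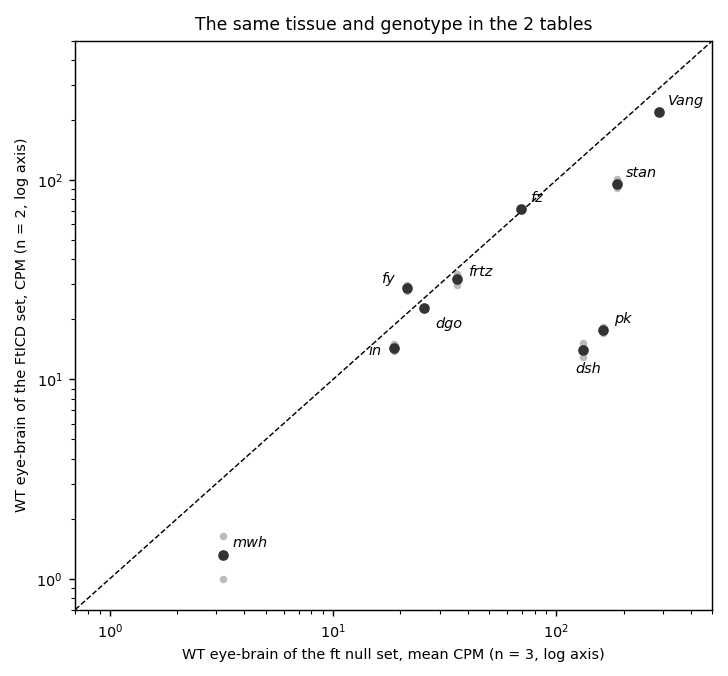
Mean CPM of each gene in the WT eye-brain libraries of the ft null table (x axis) and of the FtICD table (y axis), both log scales, with equality as a dashed line. Grey points are single WT libraries of the FtICD table, and WT of the ft null table is shown by its mean alone. The genes pk (162 and 17.7 CPM) and dsh (131 and 14.1 CPM) lie farthest below the line.

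Beyond the 10 genes, 61 genes in 5 lists cover systems that feed into or read out planar polarity. In FtICD embryos 13 of the 60 tested rose and 11 fell, in FtICD wing discs 1 rose and 10 fell of 58, and in FtICD eye-brain complexes 2 of 59 were called, both higher. These counts include ft, whose intracellular domain the transgene encodes, as higher in every FtICD comparison. It was the only gene higher in wing discs, and Wnt5 was the other in eye-brain complexes. In ft null eye-brain complexes 13 rose and 16 fell of 58. The lists are described by these counts and their median log2 fold change, to be read beside the shares of all genes called that are given above and a median gene between 0.00 and 0.01 in the 4 comparisons. Counts at an unadjusted p under 0.05 have a wider background. In FtICD eye-brain complexes the member dsh, inside that threshold, ranked 2093 of 10841 genes. In FtICD wing discs inturned, just outside it (unadjusted p = 0.054 by edgeR), ranked 3153 of 9416.

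Misshapen (msn), a kinase gene of the Jun kinase arm of Frizzled signalling, averaged 15.8 CPM in FtICD and 32.5 CPM in WT embryos (-1.0 ± 0.11, adjusted p = 3.9e-05). It averaged 26.4 CPM in FtICD and 56.9 CPM in WT wing discs (-1.11 ± 0.17, adjusted p = 0.0070), and 33.7 and 73.1 CPM in FtICD and WT eye-brain complexes (-1.09 ± 0.13, adjusted p = 0.024). This gene therefore fell with FtICD in all 3 tissues, while in ft null it did not pass the test, at 449 CPM and 485 CPM in its WT (-0.11 ± 0.06, adjusted p = 0.15).

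In ft null, 5 of the 10 genes of the Fat and Dachsous list rose and 1 fell (median 0.39). The atypical myosin gene dachs (d), which acts downstream of Fat, averaged 320.0 CPM in ft null and 167 CPM in its WT (0.94 ± 0.06, adjusted p = 5.0e-05). The Golgi kinase gene fj averaged 218 CPM in ft null and 142 CPM in its WT (0.62 ± 0.07). In FtICD embryos 3 rose, ft included, and 2 fell (median 0.12), and d was among the lower, at 19.4 CPM against 29.1 CPM in WT (-0.55 ± 0.12). Apart from ft, whose intracellular domain the transgene encodes, no gene of that list was called by edgeR in FtICD wing discs or eye-brain complexes, where 3 genes in each, ft included, had an unadjusted p under 0.05.

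Regulators of core protein trafficking, stability and signalling had 5 of 14 genes higher and 2 lower in FtICD embryos (median 0.21). In FtICD wing discs 2 were called, both lower (median -0.13). One was nmo, a kinase gene of ommatidial rotation, which averaged 186 CPM in FtICD and 371 CPM in WT wing discs (-1.0 ± 0.12, adjusted p = 0.0024). The phosphatase subunit gene wdb was the other (-0.96 ± 0.23, adjusted p = 0.029), and it rose in FtICD embryos (0.73 ± 0.08, adjusted p = 4.4e-05). In ft null 1 regulator rose and 3 fell (median -0.11), nmo among the lower at 294 CPM against 448 CPM in its WT (-0.61 ± 0.06). In FtICD eye-brain complexes edgeR called 0, and 3 had an unadjusted p under 0.05.

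The wing hair and prehair list, actin and apical matrix genes that build the hair, had 1 of 18 higher and 3 lower in FtICD embryos (median -0.10). Of 17 tested in FtICD wing discs 3 were called, all lower (median -0.30), and of 16 in ft null 3 rose and 5 fell (median -0.14). The matrix gene neo averaged 4.68 CPM in FtICD and 12.5 CPM in WT embryos (-1.38 ± 0.30), and 149.9 and 239 CPM in FtICD and WT wing discs (-0.68 ± 0.09). The fascin gene sn fell in FtICD wing discs (-0.46 ± 0.09) and ft null (-0.49 ± 0.06). In FtICD eye-brain complexes edgeR called 0 of 17, and 4 had an unadjusted p under 0.05.

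Of 10 Frizzled receptors and Wnt ligands tested in FtICD wing discs, 5 were called and all were lower (median -0.40). Wnt4 averaged 7.68 CPM in FtICD and 19.9 CPM in WT wing discs (-1.38 ± 0.21), and Wnt6 25.1 and 54.1 CPM (-1.11 ± 0.24). In that list 2 rose and 2 fell in FtICD embryos, Wnt5 rose in FtICD eye-brain complexes (1.54 ± 0.24, adjusted p = 0.038), and 2 rose and 1 fell in ft null. Of the 8 ommatidial genes, 6 fell and 2 rose in ft null (median -0.40), where markers of the eye disc were lower as well. The protease gene ru averaged 19.3 CPM in ft null and 70.8 CPM in its WT (-1.87 ± 0.07), and the receptor gene sev 87.7 and 157 CPM (-0.84 ± 0.05). In FtICD embryos 2 of these 8 genes rose and 2 fell. In FtICD wing discs edgeR called 0 of 7 and in FtICD eye-brain complexes 0 of 8, and 1 and 3 had an unadjusted p under 0.05.

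**Figure D5:**
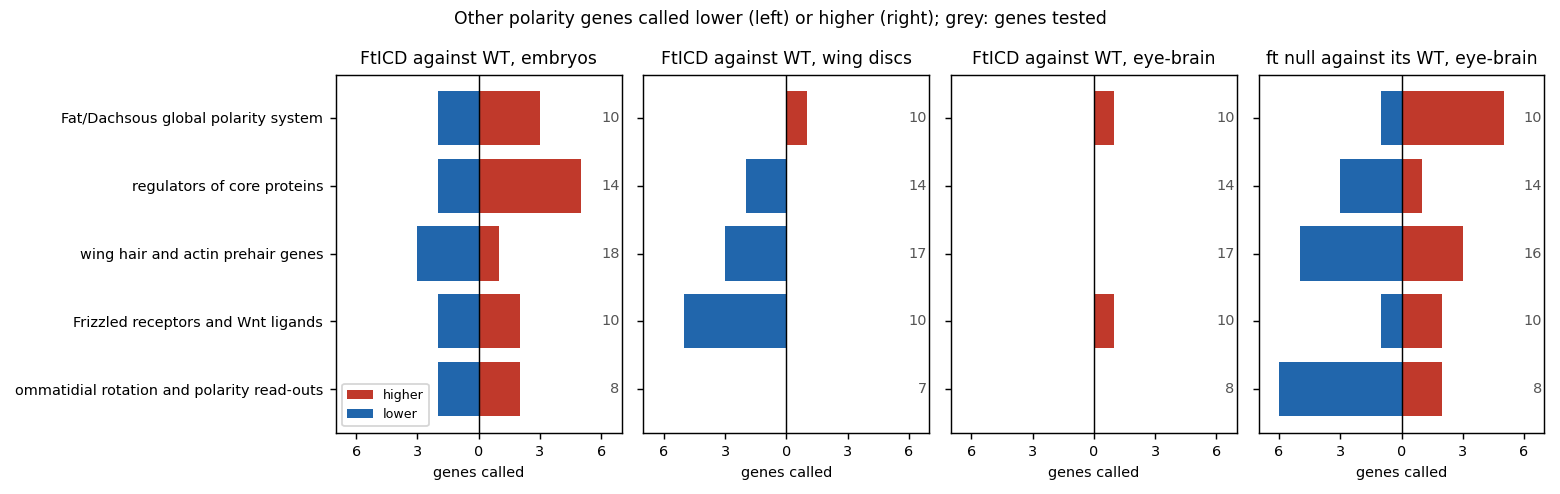
Number of genes called lower (bars to the left) and higher (bars to the right) in each list and comparison, with the number tested in grey. The ommatidial list has 6 of 8 genes lower in ft null, and the Frizzled and Wnt list 5 of 10 lower in FtICD wing discs.

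Genes whose log2 CPM ran most like each member over the 19 libraries of the FtICD table were sought among 5550 genes. The closest were Dhod for Vang (r = 0.997), sc for fy (0.996), gwl for inturned (0.992), Oseg4 for dgo (0.990), lncRNA:CR33938 for stan (0.987), grnd for fz (0.986), Rap1 for dsh (0.983), tfc for mwh (0.979), miple2 for frtz (0.974) and smal for pk (0.947). Dachs (d) was the third closest to dgo (0.987). The libraries share 3 tissues and FtICD or WT genotypes, so these r are descriptions that rest on tissue differences.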

How the data were processed

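RNA from 25 libraries was measured by RNA-seq. Per the labels' protocols, SMARTer Ultra Low cDNA was made from 10 ng of RNA (RIN over 8), sheared, amplified in 12 to 15 cycles and read as paired 150-base reads. The authors deposited gene tables of expected counts, not scaled for depth; 34.0% of nonzero FtICD values and 24.6% of nonzero ft null values were not whole (tolerance 1e-06), and all were rounded. Tools named, per the submitters' processing notes, are Salmon 1.80, Trimmomatic 0.33, FastQC 0.10 and edgeR, with build dm6; how transcripts were summed to genes is not given in the sources used here. All columns were mapped to samples by their labels.

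In R 4.3.3, edgeR 4.0.16 fitted each comparison to its own libraries: filterByExpr (minimum count 10), TMM scaling and the two-sided quasi-likelihood test, with Benjamini-Hochberg adjustment over all genes tested and a threshold of 0.05. WT tissues were compared in 1 fit of the 9 WT libraries of the FtICD table, and effects by interaction terms. CPM used TMM-scaled totals of each table. SE is the log2 fold change over the square root of F. The 95% intervals are a normal approximation, 1.96 SE either way, and are narrower than the quasi-likelihood test implies. For fz in FtICD wing discs the interval from 0.017 to 0.430 lies wholly above no change, at an unadjusted p of 0.072 by that test. Steps were tested on simulated data. No library pair of a group held duplicated values (28 pairs). Library totals limit precision for mwh and inturned where counts are low.

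The alternatives were DESeq2 1.42.0, its size factors, no filter, no ribosomal RNA or mitochondrial genes, a replicate block, a joint fit and leaving out each library. The members and lists were chosen with earlier results of these data known. All members were named; of each list up to 3 called genes with the smallest adjusted p in a comparison could be named. Same-numbered libraries did not deviate together (r from -0.21 to 0.23), so numbers were not taken as pairs. No sequences are shown, because no sequence table was used here. One of the lists chosen is not reported here.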

Additional observations from a re-analysis of the deposited data

Results flagged for a closer look

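The response to FtICD or to loss of ft differed between settings for 10 pairs of gene and contrast, by interaction terms in edgeR with adjustment over all genes. The effect on mwh was 1.64 higher (log2) in wing discs than in embryos, and this held with any 1 library left out. The effect on dsh was -1.38 in eye-brain complexes relative to embryos. It rested on single libraries, since its adjusted p lay between 0.050 and 0.14 without each of 9 libraries in turn. Relative to wing discs, effects in eye-brain complexes were -0.57 for dgo, -1.55 for mwh and -0.53 for frtz, and no one of these calls held under every library left out. Relative to FtICD in eye-brain complexes, the effect of ft loss was 1.07 higher for inturned, 0.84 for frtz, 0.56 for dgo, 1.34 for dsh and 0.38 for Vang. Those for dsh and Vang were lost without several single libraries, and those for inturned, frtz and dgo were not. Table and sequencer differ between the ft null and FtICD sets, and cannot be told apart from genotype beyond what each own WT removes.

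No library stood out from its group by Dixon's test in the 20 groups of 4 libraries tested, the 10 genes in FtICD and WT embryos.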

How the results depend on the processing

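No called value of the 110 gene results changed direction in any alternative. Of 1710 alternative values, 1585 kept their side of the threshold, 100 lost a call and 25 gained one, and 35 of the 48 calls were never lost. In wing discs the joint fit called 0 members in place of 1, and 2283 of 12680 genes in place of 1661 of 9416. In FtICD eye-brain complexes DESeq2 called 3, the joint fit 3 and the replicate block 1, in place of 0. With the replicate block, ft null had 2 members called in place of 5, and 3262 of 9978 genes in place of 4440. Effects that differed between wing disc and embryo numbered 3 with DESeq2 size factors and 4 with DESeq2, in place of 1, and between eye-brain and embryo 2 with DESeq2, in place of 1. Over all genes these were 3635 of 12680 and 4166 of 12314 in place of 3507 for wing disc and embryo. For eye-brain and embryo they were 4302 of 12560 in place of 3578. Between eye-brain and wing disc, members whose effects differed numbered 0 without the filter and 0 without ribosomal RNA and mitochondrial genes, in place of 3. All-gene calls there were 1430 of 16134 and 1504 of 12656, in place of 1526 of 12680. The causes were not tested. With each library left out in turn (64 fits), members called ranged from 4 to 5 in FtICD embryos, 1 to 1 in wing discs, 0 to 0 in FtICD eye-brain complexes and 2 to 4 in ft null. They ranged from 10 to 10, 9 to 9 and 7 to 9 in the WT contrasts of wing disc and embryo, eye-brain and embryo, and eye-brain and wing disc. Effects that differed ranged from 1 to 2 for wing disc and embryo, 0 to 2 for eye-brain and embryo, 0 to 4 for eye-brain and wing disc, and 3 to 5 for ft null and FtICD. Over all genes, with each library left out, 5407 to 6058 were called in FtICD embryos and 872 to 1561 in FtICD wing discs. The range was 3097 to 5068 in ft null. In FtICD eye-brain complexes all-gene calls numbered 458. They numbered 10, 527 and 865 without FtICD replicate 1, 2 and 3, 55 and 8 without WT replicate 1 and 2, 1284 with the replicate block, 1837 with DESeq2 and 1725 in the joint fit. Low counts limit inturned in embryos (4 to 23 per library) and mwh in eye-brain complexes (10 to 59).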
